A study of Caenorhabditis elegans with 4 samples.

Results

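The heterochronic genes set the order and the timing of cell fates in the larvae of the nematode Caenorhabditis elegans. The list held 9 of them: lin-14, lin-28, lin-29, lin-41, lin-42, lin-46, hbl-1, mab-10 and daf-12. Members were taken from probes that the platform annotation assigns to exactly 1 gene with one of these symbols, and 7 of the 9 were found, among 14887 named genes tested. The other 2, lin-14 and lin-28, were not analysed here. RNA came from wild-type worms at L4, the last larval stage, in 4 preparations, each in channel 2 of its own array beside a wild-type mixed reference in channel 1. No label names the strain, the sex, the culture conditions, the stages mixed into the reference or the hours within L4. The preparations form 1 group, and the labels do not say that they were separate cultures, so the p-values measure the spread between these 4 samples, which may be partly technical.

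In the epidermis, the pathway works as a relay. Early regulators such as lin-14, lin-28 and hbl-1 hold cells in the programmes of the first larval stages, and microRNAs of the lin-4 and let-7 families switch them off as the larva grows. The RNA-binding protein LIN-41 then holds back LIN-29, a zinc finger transcription factor, and its cofactor MAB-10 until let-7 silences lin-41, after which the seam cells of the lateral epidermis stop dividing, fuse and make adult cuticle. The nuclear receptor DAF-12 ties this relay to a steroid hormone, and LIN-42, a relative of the Period clock proteins, paces it with the moults.

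Values are log2 ratios of L4 to reference, with the median of each array set to 0. The direction of the deposited ratios is not stated. Positive values are read as likely higher in L4, because the sample descriptions put L4 before the reference, and "higher" and "lower" carry that limit throughout. Stage markers had these signs. Of 15 sperm genes, 14 were higher and 0 lower (0 also at an unadjusted p under 0.05 in limma). Of 9 dauer and early larva genes, 8 were lower. Lower were also 9 of 16 oocyte, 2 of 3 yolk and 2 of 9 embryo genes. Of the named genes, 13.4% were higher and 9.66% lower. The lists were chosen with earlier results of these data known, so these counts do not test the direction. Sperm marker medians were 2.86, 3.50, 2.44 and 1.32 in preparations 1 to 4, and those of the yolk genes were -2.22, -0.73, -3.33 and -5.28. In preparation 4, vit-2 and vit-5 shared the value -5.28, the lowest of any named gene on that array. Whether it is a floor was not tested. The yolk gene vit-6 had no value in preparation 1. The correlation between 2 arrays over all probes ran from 0.556 to 0.724, and the housekeeping median lay between -0.19 in preparation 3 and 0.38 in preparation 4.

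Of the 7 heterochronic genes measured, hbl-1 was lower in L4, mab-10 was higher, and the other 5 did not pass an adjusted p of 0.05 in limma. Called members were therefore 1 lower and 1 higher of 7, beside 9.66% lower and 13.4% higher (23.1% in all) over the named genes, so the counts are near the background. At an unadjusted p under 0.05, lin-41 was also lower. The 4311 calls over all 19897 probes and genes split into 2367 higher and 1944 lower, but with each array centred on 8 housekeeping genes into 1575 and 2001. That centring shifted the median of the named genes by -0.109. The median of the 7 member means was -0.20, beside 0.045 over all named genes, but it was -0.31 with housekeeping centring, -0.30 without preparation 1, -0.045 without preparation 3 and 0.0044 with array weights.

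**Figure D1:**
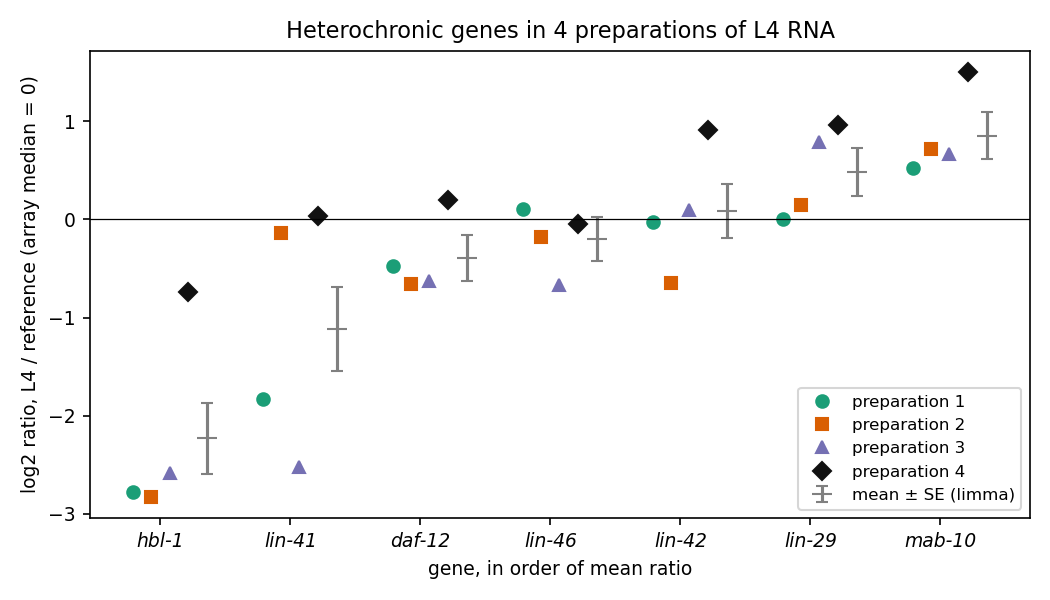
Log2 ratio of L4 to reference (y axis, array median at 0) for each of the 7 heterochronic genes (x axis, in order of the mean), with 1 symbol per preparation and the mean ± SE from limma in grey. The 4 values of hbl-1 are all below 0, those of mab-10 and lin-29 are all above 0 with this centring, and preparation 4 is the highest for every gene but lin-46.

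The early regulator hbl-1 (F13D11.2), a zinc finger factor of the Hunchback family that keeps cells in second-stage fates, was the lowest member on every array. Its log2 ratios were -2.78, -2.82 and -2.58 in preparations 1 to 3 and -0.74 in preparation 4. All 4 values were below 0 in 22.6% of the named genes measured on all arrays. The first 3 preparations lay within a narrow band and the fourth stood well above them, still below 0. As folds, the transcript was 6.87, 7.08 and 5.98 times lower than in the reference in preparations 1 to 3, and 1.67 times lower in preparation 4. The mean was -2.23 ± 0.36 (SE, n = 4), a 4.69-fold difference, with an adjusted p of 0.00451 in limma. Among the named genes, 1.11% had a lower mean. The call held under all 12 alternatives, with adjusted p from 0.000178 to 0.0429, and without preparation 4 the mean was -2.73 (adjusted p = 0.00216 in limma). hbl-1 had a larger SD between arrays (1.00) than 92.7% of the named genes.

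lin-41 (C12C8.3) encodes a TRIM-NHL RNA-binding protein, the main target of let-7 in the epidermis, which also acts in oocytes. The 4 preparations split. Its ratios were -1.83 and -2.52 in preparations 1 and 3, and -0.14 and 0.032 in preparations 2 and 4. The mean of -1.11 ± 0.43 (SE, n = 4) had a limma interval of -2.10 to -0.13 before adjustment and did not pass over all genes (adjusted p = 0.0992). Its SD of 1.26 was larger than that of 96.7% of the named genes. Without preparation 3 the mean was -0.65. With array weights it passed (mean -1.53, adjusted p = 0.00418 in limma), but that fit gave preparation 1, where lin-41 was at -1.83, a weight of 4.90, against 0.471 to 0.732 for the other arrays.

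Oocyte genes also differed between the preparations, but not in the same way. The median of 16 oocyte markers was -1.09, -0.048, -2.91 and -2.88 in preparations 1 to 4, with ranges of -1.77 to -0.45, -0.86 to 1.08, -3.89 to -1.59 and -4.34 to -1.47. In preparations 2 and 3 lin-41 lay inside the range of these markers. In preparation 4 it lay above all of them, and in preparation 1 just below the lowest. Of the markers, 9 were lower and 0 higher (0 also at an unadjusted p under 0.05 in limma), against 0 lower without preparation 3, 2 without preparation 4 and 16 without preparation 2. Fewer cells of a type and less RNA per cell cannot be told apart in bulk RNA, and the part of oocyte RNA in the lin-41 values was not tested.

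Both genes at the end of the relay had positive ratios on all 4 arrays, except that lin-29 was at -0.12 in preparation 2 with housekeeping centring and at -0.039 in preparation 1 with values as deposited. mab-10 (R166.1) encodes a NAB-type transcriptional cofactor that acts with LIN-29. Its ratios were 0.52, 0.72, 0.66 and 1.50 in preparations 1 to 4. The first 3 were close together, and preparation 4 was the highest. The mean was 0.85 ± 0.24 (SE, n = 4), a 1.80-fold difference, with an adjusted p of 0.0378 in limma. The call rests on all 4 arrays: without preparation 1, 2, 3 or 4 the adjusted p was 0.0844, 0.0760, 0.0813 and 0.114, and with housekeeping centring it was 0.0618, always with a positive mean.

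lin-29 (W03C9.4), the zinc finger factor that triggers the switch to adult epidermis, had ratios of 0.0074 and 0.15 in preparations 1 and 2 and of 0.79 and 0.96 in preparations 3 and 4. The values formed a low pair and a high pair. The mean of 0.48 ± 0.24 (SE, n = 4) did not pass (adjusted p = 0.193), with an interval of -0.084 to 1.04. In the other settings its adjusted p ran from 0.188 to 0.453. All 4 values were above 0 in 24.6% of the named genes measured on all arrays, so that sign pattern is common.

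Between hbl-1 and the genes at the end of the relay the gap within an array was wide. By mean, hbl-1 was the lowest member and mab-10 the highest, so a wide gap between them follows from the choice. The ratio of mab-10 exceeded that of hbl-1 by 3.30, 3.54, 3.24 and 2.24 log2 units in preparations 1 to 4, a mean of 3.08 ± 0.58 (SD, n = 4), and the 2 genes' values did not overlap. The ratio of lin-29 exceeded that of hbl-1 by 1.70 to 3.37, also without overlap. The values of daf-12, lin-46 and lin-42 did not overlap those of hbl-1 either, with mean differences of 1.84, 2.03 and 2.31. hbl-1 thus lay apart from every member but lin-41, not only from the end of the relay. Any gene above -0.74, the highest value of hbl-1, on all arrays would not overlap it. The lack of overlap therefore restates that hbl-1 was low, and the share of named genes without overlap was not computed. Between lin-29 and lin-41 the difference was 1.84, 0.29, 3.30 and 0.93, positive on all arrays, although the 2 ranges overlapped. In the order of means, hbl-1, lin-41, daf-12, lin-46, lin-42, lin-29 and mab-10, every pair of neighbours had overlapping ranges. The difference with the smallest SD between arrays was that of mab-10 over daf-12, at 1.00, 1.37, 1.29 and 1.30, a mean of 1.24 ± 0.16 (SD, n = 4). This pair was picked as the tightest of all pairs of members after the values were seen. The share of other gene pairs as tight was not computed.

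daf-12 (F11A1.3), the nuclear receptor that reads dafachronic acid, had ratios of -0.48, -0.66 and -0.63 in preparations 1 to 3 and 0.20 in preparation 4. It was below 0 in the first 3 and above 0 in the last, where housekeeping centring gave -0.18. The mean was -0.39 ± 0.23 (SE, n = 4; adjusted p = 0.254 in limma), with an interval of -0.93 to 0.14. lin-46 (R186.4), which encodes a gephyrin-like protein that keeps HBL-1 out of nuclei, had ratios of 0.10, -0.19, -0.67 and -0.051. It was lowest in preparation 3, and its mean of -0.20 ± 0.22 (SE, n = 4) did not pass (adjusted p = 0.541 in limma).

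lin-42 (F47F6.1) was the only member with 2 probes. One probe (2766903) gave 0.14, -0.71, 0.46 and 1.10 in preparations 1 to 4, and the other (2800035) gave -0.19, -0.59, -0.26 and 0.71. They agreed in sign in preparations 2 and 4 and had opposite signs in preparations 1 and 3. Averaged over the probes, the ratios were -0.025, -0.65, 0.097 and 0.91. The mean of 0.082 ± 0.28 (SE, n = 4) did not pass (adjusted p = 0.856 in limma), with an interval of -0.56 to 0.72. Its sign turned to -0.027 with housekeeping centring and to -0.19 without preparation 4.

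Since lin-42 transcripts are known to cycle with the moults, its values are set beside 14 moulting genes, which act in shedding the old cuticle. They include genes of matrix proteins, proteases and protease inhibitors. The median of the 14 genes on arrays 1 to 4 was 0.053, -0.65, 0.086 and 1.73, the same order of preparations as for averaged lin-42. That order rests on a small difference between preparations 1 and 3. Probe 2766903 of lin-42 had it too, but probe 2800035 was lower in preparation 3 (-0.26) than in preparation 1 (-0.19). Of the 14 genes, 12 were highest in preparation 4, where 29.8% of all named genes with 4 values were highest, and 11 were lowest in preparation 2, where 29.7% were. Several genes of this list spanned wide ranges. noah-1, a gene of the apical matrix, was at -0.46, -1.15, -0.34 and 2.22, and mlt-11, a protease inhibitor gene, was at -0.31, -1.14, -0.45 and 2.05. In preparation 4 these ratios were far above those of the other arrays. Over the 4 arrays together 2 moulting genes (14.3%) were called, both higher, a share near the 13.4% of the named genes. They were the protease gene nas-36 at 1.86 ± 0.28 (SE, n = 4; adjusted p = 0.00330) and the protease inhibitor gene bli-5 at 0.79 ± 0.22 (adjusted p = 0.0360), and bli-5 did not pass without any 1 of the preparations (0.0809 to 0.109) or with housekeeping centring (0.0759).

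**Figure D2:**
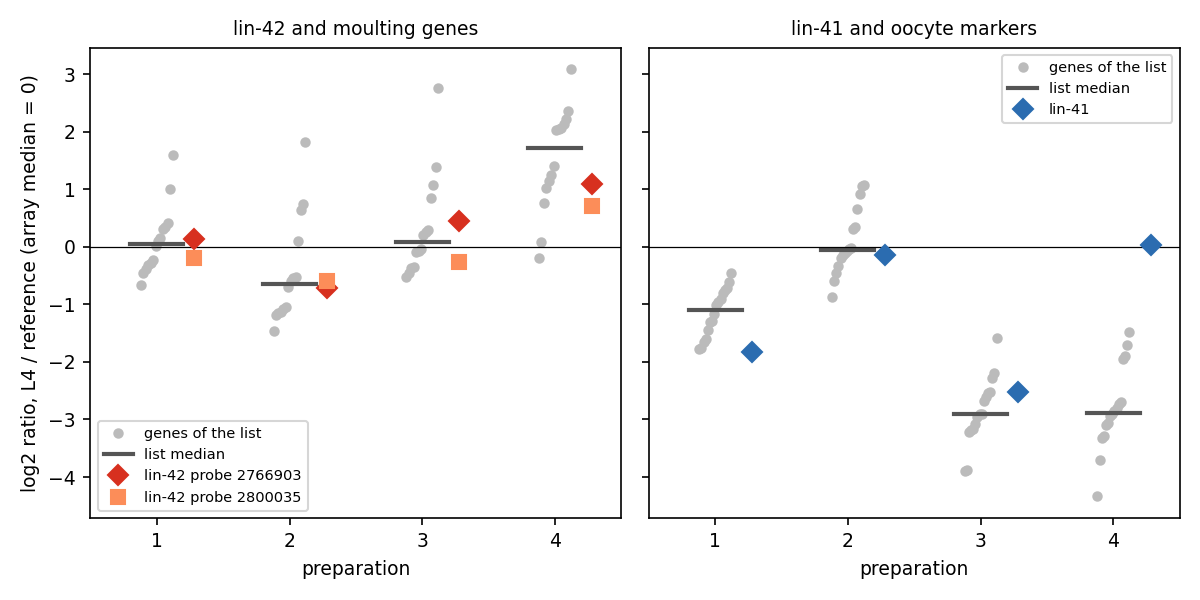
Log2 ratio of L4 to reference (y axis, array median at 0) in each preparation (x axis). Left, the 14 moulting genes (grey points, bar at the median) and the 2 lin-42 probes (red and orange); right, the 16 oocyte markers and lin-41 (blue). The moulting median was 1.73 in preparation 4 and at most 0.086 in the others, and lin-41 lay above every oocyte marker in preparation 4.

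In preparation 4 most of the heterochronic genes had their highest ratio. This held for 6 of 7 members, all but lin-46, and again for 6 with values as deposited and with arrays scaled to 1 spread. With housekeeping centring it held for 5, since lin-29 was then highest in preparation 3. Of all named genes with 4 values, 29.8% were highest in preparation 4. In the dafachronic acid and DAF-12 pathway 7 of 9 genes were. So were 8 of 11 other heterochronic and moult-timing genes and 12 of 14 moulting genes. Among seam cell genes 6 of 15 were, among microRNA machinery genes 5 of 12 and among late cuticle collagens 1 of 8. The pattern is thus not particular to the members. Beside the mean of preparations 1 to 3, preparation 4 was higher by 1.99 for hbl-1, 1.53 for lin-41, 1.10 for lin-42, 0.87 for mab-10, 0.78 for daf-12 and 0.65 for lin-29. For hbl-1 this gap was larger than for 99.4% of the named genes, for lin-29 larger than for 85.6%. The contrast was chosen after the values were seen and rests on 1 array, so it is given without a test. The SD over probes was also lowest on this array (0.852, against 0.946 to 1.21), and its housekeeping median was the highest. Of the marker medians, those of the sperm and yolk genes were lowest here (1.32 and -5.28) and that of the moulting genes was highest. The yolk median equals the lowest value of any named gene on this array. The array titles end in date-like strings, with preparation 4 in an earlier month than preparations 1 to 3 if read as dates. No label explains these strings. The part of any of these differences in the pattern was not tested.

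Most of the listed cuticle collagens of late stages, several of which depend on LIN-29, were higher in L4 than in the reference. Of 8 measured, 7 (87.5%) were higher and 0 lower (0 also at an unadjusted p under 0.05 in limma), with a list median of 3.77. Over the named genes, 13.4% were higher and 9.66% lower. The list was chosen with earlier results of these data known. The highest was col-38 at 4.83 ± 0.25 (SE, n = 4), with 4.80, 4.30, 5.46 and 4.74 in preparations 1 to 4. The 3 called genes with the next highest means were bli-2 at 4.40, col-49 at 4.35 and col-63 at 4.16, and the lowest called mean was that of col-7, at 3.29. Without preparation 4 all 8 passed, and without preparation 3, 5 did, when col-7 and col-62 had adjusted p of 0.102 and 0.0844 in limma. Without preparation 2, col-7 was at 0.0549.

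Preparation 4 split this list. bli-1, a collagen gene of the struts of the adult cuticle, was at 3.08, 3.09, 3.80 and 3.53, and col-38, col-49, col-63 and bli-2 were likewise between 2.78 and 5.46 on every array. In contrast, col-7 was at 4.38, 4.20 and 4.74 in preparations 1 to 3 and at -0.16 in preparation 4. The values of col-62 were split likewise, at 4.09, 4.36, 4.82 and 0.12. The adult-stage reporter gene col-19, the only one of the list that was not called (mean 0.79 ± 0.75, adjusted p = 0.471), was at 2.47, 2.27, 1.08 and -2.65. The array with the highest ratios of mab-10 and lin-29 (preparation 3 for lin-29 with housekeeping centring) was thus the one with the lowest ratios of col-7, col-62 and col-19. Preparation 4 minus the mean of the other arrays was -4.60, -4.31 and -4.59 for these 3 genes, and at most 0.0278% of the named genes had a lower value.

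**Figure D3:**
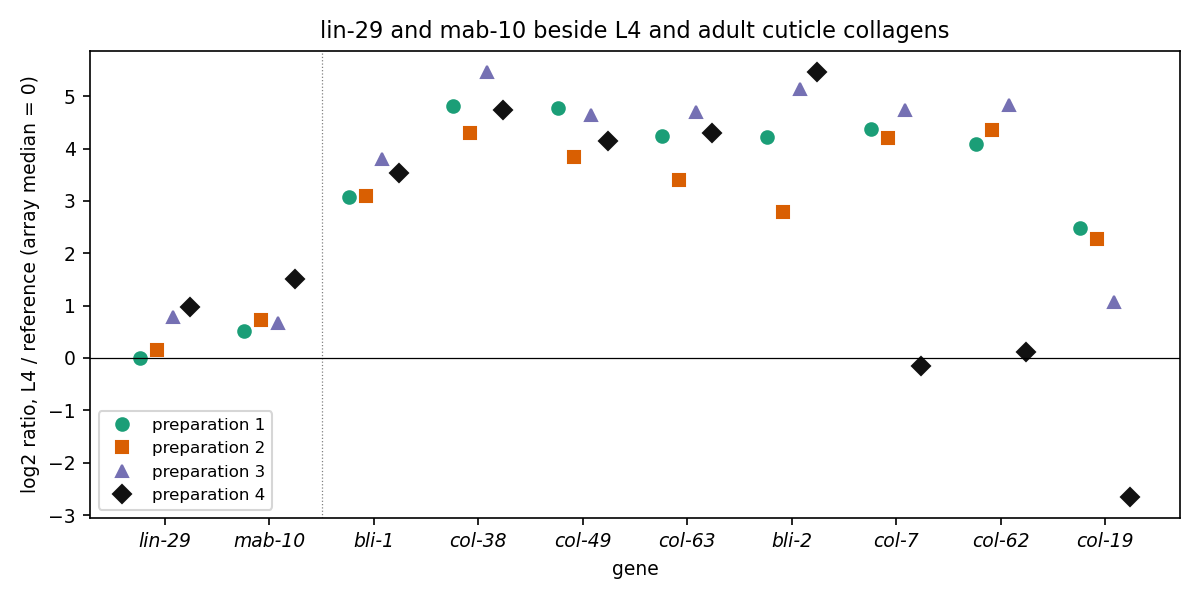
Log2 ratio of L4 to reference (y axis, array median at 0) for lin-29, mab-10 and the 8 late collagen genes (x axis), with 1 symbol per preparation. Preparation 4 (black) is the highest for mab-10 and, with this centring, for lin-29, and lies at -0.16, 0.12 and -2.65 for col-7, col-62 and col-19, while the other collagens stay at 2.78 or above on all arrays.

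Seam cell genes, which act in the cells that the heterochronic pathway times, were called lower more often than higher. Of 15 measured, 5 (33.3%) were lower, beside 9.66% of the named genes, 1 was higher and 9 did not pass, with a median of -0.65. The hedgehog-related gene grd-10 was lowest at -1.56 ± 0.29 (SE, n = 4). It was followed by the GATA factor genes egl-18 at -1.20 ± 0.22 and elt-6 at -1.04 ± 0.29, the RUNX factor gene rnt-1 at -0.90 ± 0.21 and the GATA factor gene elt-1 at -0.80 ± 0.22. All 5 were below 0 on all 4 arrays. The nuclear receptor gene nhr-73 was higher at 1.32 ± 0.36, with 0.49, 0.56, 1.68 and 2.55 in preparations 1 to 4. The 5 lower became 2 without preparation 1 or 2 and 3 without preparation 3, and 8 with array weights, while grd-10 and egl-18 passed in every setting that averaged probes per gene. nhr-73 lost its call without preparation 3 (adjusted p = 0.137 in limma) or preparation 4 (0.0947), with housekeeping centring (0.0590) and with arrays scaled to 1 spread (0.0525).

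In the dafachronic acid and DAF-12 pathway, 2 of 9 genes (22.2%, beside 13.4% of the named genes) were higher and 0 lower. At an unadjusted p under 0.05 in limma, 1 was lower. With array weights 3 were higher and 2 lower. daf-36, the oxygenase gene for the first step of dafachronic acid synthesis, was at 1.41, 2.05, 2.02 and 2.06 in preparations 1 to 4. Its mean of 1.88 ± 0.22 (SE, n = 4) was a 3.69-fold difference with an adjusted p of 0.00130 in limma, and it passed in every setting that averaged probes per gene. The nuclear receptor gene nhr-8, a relative of daf-12, was at 1.36, 0.68, 0.95 and 1.99, a mean of 1.24 ± 0.26 (adjusted p = 0.0130 in limma). daf-9, which encodes the cytochrome P450 of the last step, was at 0.25 ± 0.22 (adjusted p = 0.454 in limma). So the gene of the first step was higher and that of the last step did not pass.

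Among 13 other heterochronic and moult-timing genes, 2 (15.4%, beside 9.66% of the named genes) were lower and 0 higher (0 also at an unadjusted p under 0.05 in limma). With array weights 5 were lower and 1 higher. The nuclear receptor gene nhr-25 was at -1.09 ± 0.29 (SE, n = 4) and myrf-2, a membrane-bound transcription factor gene, at -0.92 ± 0.26. Neither passed without preparation 1, 2 or 3, with adjusted p from 0.0738 to 0.156. dre-1, the F-box gene of a ubiquitin ligase that acts on BLMP-1, was at -0.081, 0.037 and 0.077 in preparations 1 to 3 and 1.55 in preparation 4, and its mean did not pass (adjusted p = 0.379). The gene of that target, blmp-1, was at -0.89, -0.40, -0.23 and 0.81. kin-20, a casein kinase gene that works with lin-42, was at 0.19 ± 0.21 (adjusted p = 0.541 in limma).

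Of 12 genes of the microRNA machinery, which makes and uses lin-4 and let-7, 1 was higher: tsn-1, the Tudor nuclease gene, at 0.98 ± 0.24 (SE, n = 4; adjusted p = 0.0239 in limma). It did not pass without preparation 2, 3 or 4 (0.0562 to 0.0761). The share higher, 8.33%, was below the 13.4% of the named genes, and 0 were lower, with 2 lower at an unadjusted p under 0.05 in limma. With array weights 4 were lower, and with housekeeping centring or without preparation 4, 1 was. Both Argonaute genes of this list were measured. alg-1 was at -0.056, 0.073, 0.95 and 0.87 in preparations 1 to 4, and alg-2 at -0.59, -0.68, -1.17 and -0.012. The first was higher than the second on every array, and neither passed (adjusted p = 0.227 and 0.110 in limma). ain-1, a GW182-family partner of the Argonautes, was at -1.04, -1.11 and -1.11 in preparations 1 to 3 and 0.044 in preparation 4 (adjusted p = 0.0624 in limma).

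**Figure D4:**
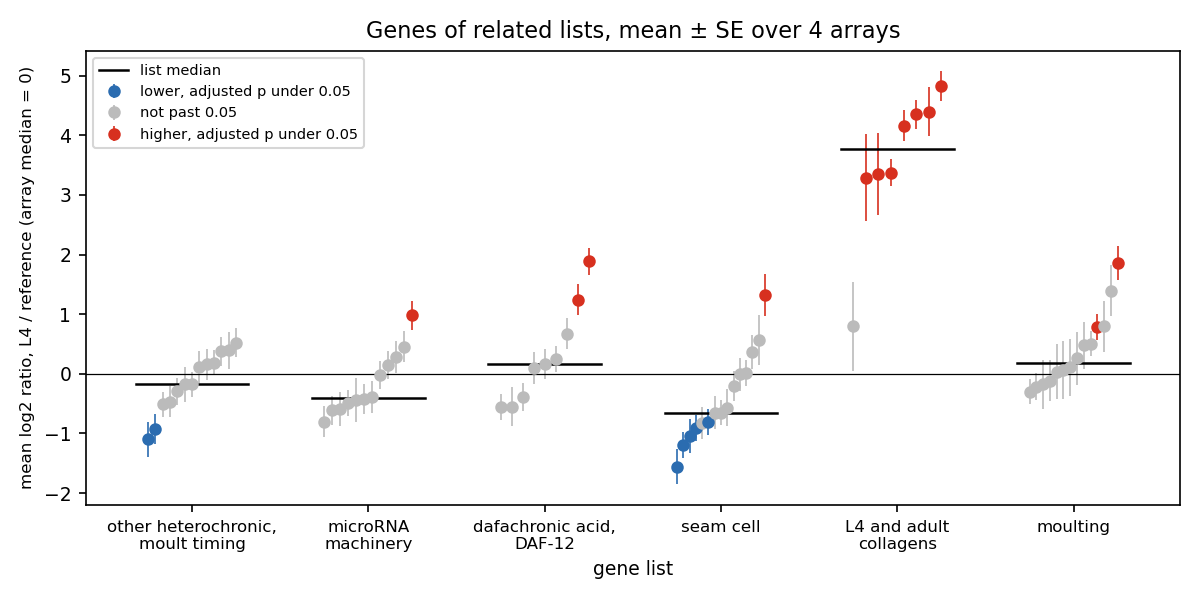
Mean log2 ratio ± SE over 4 arrays (y axis) of each gene in 6 related lists (x axis), with genes past an adjusted p of 0.05 in limma in red (higher) or blue (lower) and a bar at the list median. The late collagens stand at a median of 3.77 and the seam cell genes at -0.65.

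The likeness of other genes to each member was measured as the root mean square difference of the 4 ratios, over 14365 named genes with 4 values. For hbl-1 the 3 closest were pals-39 (0.196), fbxa-163 (0.273) and clec-61 (0.277), all of them lower in preparations 1 to 3 than in preparation 4. For lin-41 the closest were F17H10.1 (0.464), the perilipin gene plin-1 (0.488) and spp-8 (0.533), a larger distance to the nearest gene than for any other member. For lin-29 they were srr-1 (0.0935), the Argonaute gene alg-1 (0.106) and F43C9.1 (0.126). daf-12 was closest to eat-16 (0.0334), lin-46 to elb-1 (0.0624), lin-42 to garr-1 (0.0653) and mab-10 to T24C12.3 (0.0569). The distances rest on 4 arrays and are a description.

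**Figure D5:**
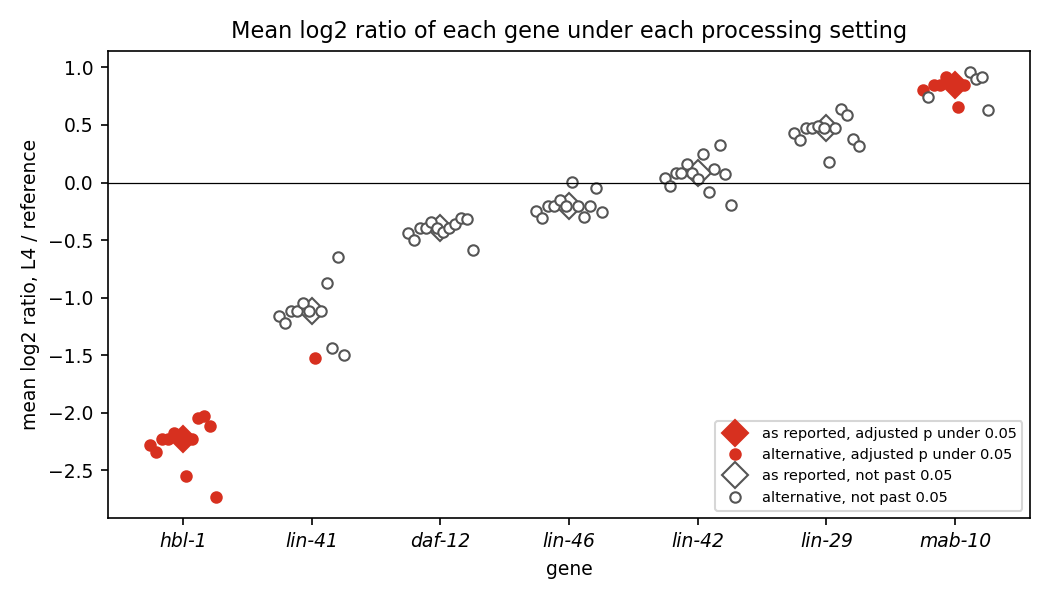
Mean log2 ratio of each heterochronic gene (y axis) as reported (diamonds) and under each other processing setting (circles), with red fill where the adjusted p in limma was under 0.05. hbl-1 is filled throughout, mab-10 in 7 of its 12 alternatives and lin-41 in 1.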

How the data were processed

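RNA of 4 L4 preparations was compared with a mixed reference on 2-channel arrays. The deposited log2 ratios come with no unit, direction, dyes, background correction or centring in the sources used here. The log2 scale was read from the values: on every array, 100% of the negative values turned into whole multiples of 0.001 (tolerance 0.02 steps) as powers of 2, against 5.93% or fewer as powers of e and 4.35% or fewer as powers of 10. The medians as deposited were -0.0469, 0.0072, -0.1001 and -0.0425 in preparations 1 to 4. The number of arrays limits the precision.

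Each array was centred on its median. Of 21632 probes, 16450 named 1 gene in the platform annotation, 247 several and 4935 none; 16360 matched the gene table of assembly WBcel235 by gene ID, with 0 symbols updated. That table served for names only. Probes of a gene were averaged, the others kept apart unnamed, and a value on at least 3 arrays was required. A two-sided test of each mean against 0 was made in limma 3.58.1 (lmFit, eBayes; R 4.3.3), with Benjamini-Hochberg adjustment over all 19897 probes and genes at 0.05. The SE is limma's moderated one, with 5.15 prior degrees of freedom, and the SD is the plain one. The reference counts as 1 sample whose own spread is left out. Intervals are limma's at 95%, unadjusted. The fit was also run on simulated data with independent errors and equal precision on all arrays, which does not test how it behaves on these arrays. Other steps used Python 3.11.15 with pandas 2.3.3 and matplotlib 3.10.9.

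The members and the lists were chosen with earlier results of these data known. Named genes are the members, the called genes of each list (up to 6, or the 3 highest and 3 lowest), and the 3 genes closest to each member; list genes that were not called were named after their values were seen. Alternatives were values as deposited, housekeeping centring, arrays scaled to 1 spread, filters of 2 or 4 arrays, robust shrinkage, array weights, probes apart and leaving out each preparation. No sequences were used here.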

Additional observations from a re-analysis of the deposited data

Results flagged for a closer look

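In 4 preparations, a value was singled out where the gap between the highest or the lowest array and its nearest neighbour took up more of the whole range than Dixon's 95% critical value for 4 samples allows. Of 88 genes and list medians checked, 12 did so. Chance gives about 1 in 20 for independent normal values, but these items share the same 4 arrays, and list medians stand beside their own genes. The 12 are therefore not read as an excess over chance, and the share over all named genes was not computed.

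Preparation 4 stood above the others for hbl-1 (gap over range 0.884), dre-1 (0.903), myrf-2 (0.844), ain-1 (0.932) and the median of the other heterochronic and moult-timing genes (0.859), which was -0.25, -0.27, -0.20 and 0.23. It stood below the others for col-7 (0.889) and col-62 (0.844). Preparation 1 was the low one for daf-36 (0.940). Preparation 2 was the high one for ncr-2 (0.835), at 1.46, and for pop-1 (0.844), at 0.46, and the low one for the median of the embryo markers (0.883), at -0.66. Preparation 3 was the low one for grd-10 (0.893), at -2.63.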

How the results depend on the processing

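The 7 members gave 85 values under the alternatives, of which 75 kept their sign and their side of the threshold. hbl-1 passed in every setting and daf-12 and lin-29 in none. Array weights, which lay mostly on preparation 1, brought lin-41 past the threshold at -1.53 and moved lin-46 to 0.0044. lin-42 turned to -0.027 with housekeeping centring and to -0.081 with probe 2800035 alone, and ran from -0.19 to 0.33 over the fits without 1 preparation. mab-10 did not pass with housekeeping centring (0.74) or without any 1 preparation (0.63 to 0.96). With array weights 2 members were lower, hbl-1 and lin-41. Housekeeping centring left 1 called member, with 0 higher, and each fit without 1 preparation left 1 called and 0 higher, where lin-41 and mab-10 had adjusted p from 0.0661 to 0.321 and from 0.0760 to 0.114 in limma. Array weights called 8260 probes and genes (4328 higher, 3932 lower), and housekeeping centring called 1575 higher. Without 1 preparation there were 2335 to 3628 calls, 1358 to 2149 higher and 977 to 1479 lower, with the fewest without preparation 3. The fits without 1 preparation have fewer samples; the cause of the other changes was not tested. Each ratio already compares L4 with the reference on the same array. No further pairing was possible because the 4 preparations form a single group.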
